A study of Drosophila melanogaster with 8 samples.

Results

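Organic cation transporters of the SLC22 type are membrane proteins that carry small charged molecules such as amines, carnitine-like compounds and organic acids across the plasma membrane. The genes described here are 6 of these in Drosophila melanogaster: CG14855, CG14856 and CG14857, which lie side by side, and the related Orct, Orct2 and CarT. They were chosen by name, through their FlyBase identifiers, from a table of 11769 genes, and the set was proposed with the diet comparison of these same libraries already known. Their differences between diets are therefore given as a description, with standard errors and no test. All 6 had rows in the table, and all 6 were among the 7844 genes with enough counts to be fitted.

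The libraries were made from larval hemocytes, the blood cells of the fly, sorted by flow cytometry for GFP driven by a Hemolectin-promoter reporter (hmlΔ>2xeGFP) that every group carried. The labels give the genotype as Wild-type for every library and the cells as macrophages. Larvae of the third instar, 96 h after egg laying, had been raised on a high-sugar diet (HSD, the sucrose-yeast medium with a 10x sucrose supplement) or on the sucrose-yeast medium itself (control diet, CD). HSD replicates 1, 2, 3 and 4 and CD replicates 1, 3, 4 and 5 were deposited, each from 20000 sorted cells, with 5 larvae bled per collection. The labels do not say whether replicates came from separate cultures, so standard errors and p-values reflect only how much these libraries vary, some of which may be technical.

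Summed gene counts per library ran from 20817891 to 24733521. Macrophage markers such as Hml and Ppn were abundant: 11 plasmatocyte markers summed to 109445 to 123591 CPM (counts scaled to library size) in HSD libraries and to 76610 to 87420 CPM in CD libraries. Of the 11, 8 passed the test as higher on HSD, where 14.4% of all genes fitted did. Crystal cell markers were also present, and 7 of 8 passed the test as higher on the high-sugar diet (edgeR adjusted p under 0.05), beside the same 14.4%. They summed to 29852 to 45439 CPM in HSD libraries and 23087 to 27251 CPM in CD libraries. Of 8 markers of lamellocytes, the flat hemocytes that encapsulate parasites, 5 passed as higher and 1 as lower, where 14.4% of all genes fitted rose and 11.6% fell. Their sum, 1803 to 2050 CPM in HSD libraries and 1533 to 1960 CPM in CD libraries, overlapped. Among those higher, the defining marker atilla held 515 counts over the HSD libraries and 19 over the CD libraries, and ItgaPS4 held 279 over the HSD libraries and 2 over the CD libraries. The marker that passed as lower was msn (log2 fold change −0.27, edgeR adjusted p = 0.00122). The abundant mys and cher did not pass, with log2 fold changes of 0.01 and 0.10. HSD replicate 4 had the lowest sum of its diet in all 3 of these hemocyte lists and the highest in the tubule and midgut lists that follow. In such bulk samples more cells of a type cannot be told apart from more RNA per cell. Many SLC22-like genes of the fly are transcribed in the Malpighian tubule, the excretory organ, so tubule markers were checked as well. The 6 of 8 tubule markers in the table summed to 1.43 to 3.22 CPM in HSD libraries and 1.42 to 2.28 CPM in CD libraries, which overlapped. Uro, the urate oxidase gene, held 29 counts over the HSD libraries, 17 of them in HSD replicate 4, and 9 over the CD libraries. Only NaPi-T was fitted, with 122 counts over HSD and 142 over CD, and it did not pass (edgeR adjusted p = 0.919). Irk3 (24 on HSD and 17 on CD), Alp4 (16 and 8) and CapaR (3 and 1) held more counts on HSD, and salt (5 and 14) fewer. The 6 midgut markers present of 8 summed to 1.56 to 7.63 CPM in HSD libraries and 1.35 to 2.80 CPM in CD libraries. The digestive protease gene Jon25Biii supplied most of the HSD excess, with 200 counts over the HSD libraries and 16 over the CD libraries. The 7 fat body markers summed to 15.5 to 24.0 CPM in HSD libraries, and to 46.9, 76.1, 16.1 and 15.5 CPM in CD replicates 1, 3, 4 and 5, so CD replicates 1 and 3 stood apart. The part of these cell types in the values below was not tested.

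CG14855, CG14856 and CG14857 are read in the same direction on chromosome 3R of the dm6 assembly, and together they span 8038 bases. CG14855 occupies 14796305 to 14798474, CG14856 14798986 to 14801163 and CG14857 14801773 to 14804342, all on the plus strand, with gaps of 511 and 609 bases between them. CG14855 and CG14856 have 4 exons each and CG14857 has 5. Orct2 (24273029 to 24275728) and Orct (24276260 to 24278792) form another tandem pair on the plus strand of the same arm, each with a single exon block, 531 bases apart and 9.47 Mb beyond CG14857. CarT lies alone on the minus strand of 2L, at 20727151 to 20730282, in 7 exon blocks.

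The 3 adjacent genes are annotated as SLC22-like transporters without a named substrate. They were scarce on both diets and higher on the high-sugar diet in every library. CG14857 had 70, 52, 51 and 49 counts in HSD replicates 1 to 4, and 5, 7, 9 and 11 counts in CD replicates 1, 3, 4 and 5. No HSD library came near the CD range, and the lowest HSD library held over 4 times the counts of the highest CD library. The mean level was 2.60 ± 0.428 CPM on HSD and 0.339 ± 0.109 CPM on CD (SD, n = 4 each). The fitted difference was 7.57-fold, a log2 fold change of 2.92 with a standard error of 0.271. From the summed counts, 222 in HSD and 32 in CD, the ratio after scaling for library size was 7.68, with an exact 95% counting interval of 5.29 to 11.5. That interval takes the pooled counts as independent reads and leaves out variation between libraries, so it may be too narrow.

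CG14855 had 38, 30, 52 and 23 counts in HSD replicates 1 to 4, and 9, 12, 8 and 14 counts in CD replicates 1, 3, 4 and 5. The groups did not overlap, although HSD replicate 3 held more than 2 times the counts of HSD replicate 4. The mean was 1.66 ± 0.511 CPM on HSD and 0.454 ± 0.102 CPM on CD, a 3.63-fold difference (log2 fold change 1.86, standard error 0.301). Its variance among the HSD libraries was 3.34 times that of counting error alone, measured as chi-square per degree of freedom, against 0.529 times among the CD libraries. With 4 libraries per diet both values are imprecise.

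CG14856, the middle gene, was the scarcest, with 20, 20, 16 and 13 counts in HSD replicates 1 to 4, and 5, 9, 6 and 3 counts in CD replicates 1, 3, 4 and 5. Again the HSD libraries all lay above the CD libraries. Its mean was 0.808 ± 0.151 CPM on HSD and 0.241 ± 0.0866 CPM on CD, a 3.28-fold difference (log2 fold change 1.71, standard error 0.353). At this depth the CD level rests on 23 counts in all.

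**Figure D1:**
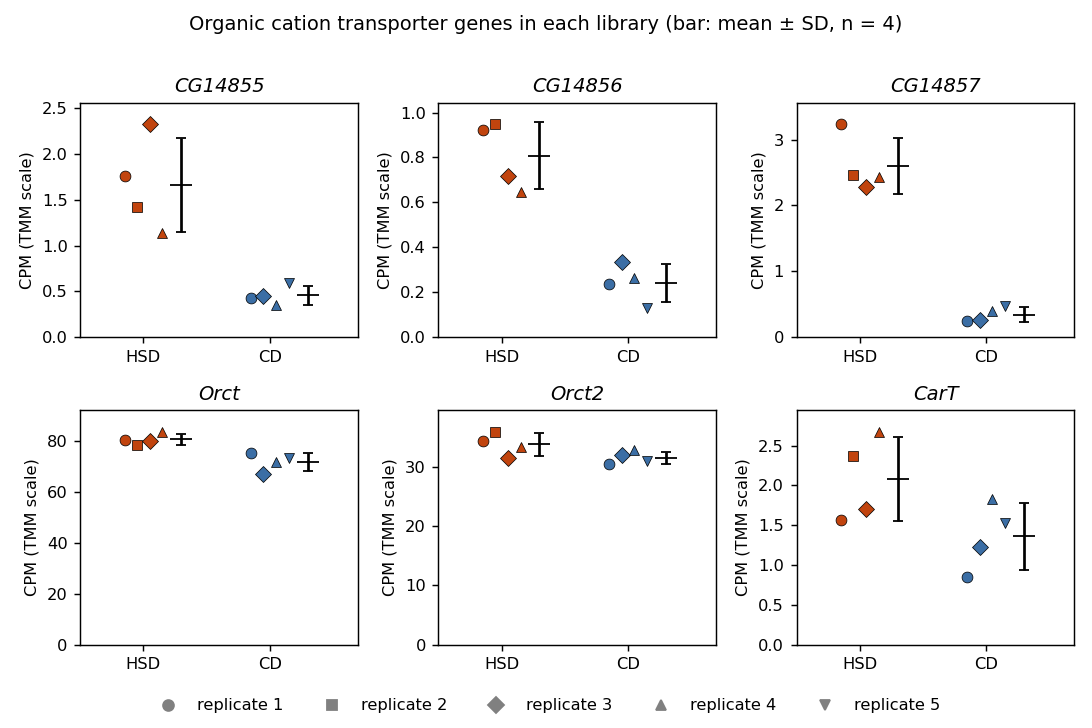
Abundance of the 6 genes in each library, as CPM on the TMM scale (y axes start at 0), with HSD left of CD, marker shapes for replicate numbers, and the mean ± SD of 4 libraries beside them. In CG14855, CG14856, CG14857 and Orct every HSD library lies above every CD library, while the diets overlap in Orct2 and CarT.

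These 3 genes entered the fit through the HSD libraries. To be fitted, a gene needed about 10 counts in 4 libraries. All 4 HSD libraries had at least 10 counts of each, whereas 2 of 4 CD libraries did so for CG14855, 1 for CG14857 and none for CG14856. Because the CD libraries alone would not have kept them, no count over the 3 is offered as support. Among all genes fitted, 1.07% were at least 3-fold higher on HSD, a share given as background, from which nothing is read for these 3 genes.

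Summed over the 3 adjacent genes, the libraries held 128, 102, 119 and 85 counts in HSD replicates 1 to 4, and 19, 28, 23 and 28 counts in CD replicates 1, 3, 4 and 5. The sum averaged 5.07 ± 0.723 CPM on HSD and 1.03 ± 0.118 CPM on CD, 4.91 times as much. HSD replicate 4 was the lowest HSD library in this sum, at 4.21 CPM, and the lowest in the plasmatocyte, crystal cell and lamellocyte sums. Without HSD replicate 4 and CD replicate 1 the log2 fold changes were 1.98 for CG14855, 1.80 for CG14856 and 2.84 for CG14857.

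The 3 genes can also be given as shares of the run, which restate their unequal fold changes and are described with no test. CG14857 made up 51.2% of the 434 HSD counts of the run (exact 95% binomial interval 46.3 to 55.9%) and 32.7% of the 98 CD counts (23.5 to 42.9%). CG14855 made up 32.9% on HSD (28.5 to 37.6%) and 43.9% on CD (33.9 to 54.3%), and CG14856 15.9% on HSD (12.6 to 19.7%) and 23.5% on CD (15.5 to 33.1%), with overlapping intervals for both genes. By library the CG14857 share was 42.9 to 57.6% in HSD libraries and 25.0 to 39.3% in CD libraries, without overlap. These intervals treat the pooled counts of a diet as independent reads and leave out variation between libraries. The reads carried no molecular identifiers, so PCR copies count as separate reads and the intervals may be too narrow.

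**Figure D2:**
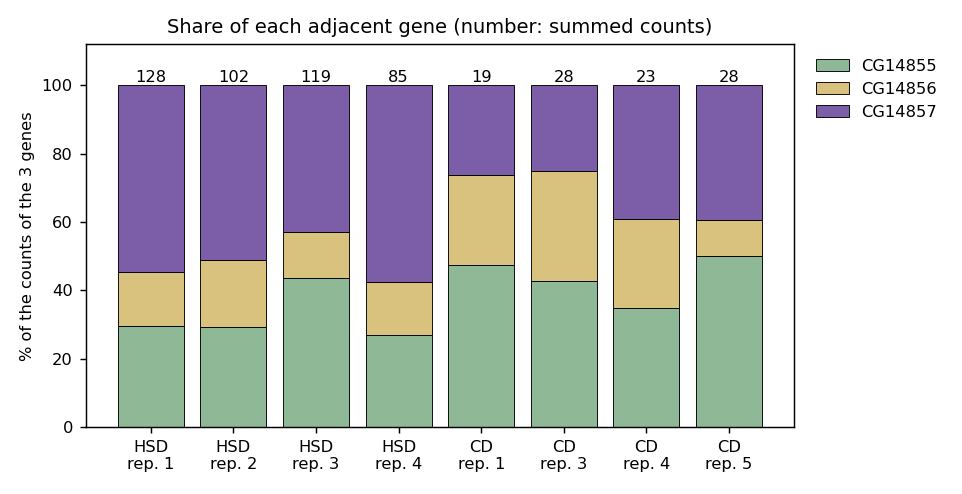
Percentage of the counts of CG14855, CG14856 and CG14857 that each gene held in each library, HSD libraries on the left and CD libraries on the right, with the summed counts of the 3 genes above each bar. The CG14857 share is 42.9 to 57.6% in HSD libraries and 25.0 to 39.3% in CD libraries.

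The last exon of CG14857 overlaps btsz, a synaptotagmin-like gene read from the opposite strand, by 251 bases, 12.1% of its exonic length. The library kit is not described as strand-specific, so reads from this stretch cannot be told apart. btsz itself rose 1.80-fold, to 26.5 ± 2.28 CPM in HSD libraries against 14.7 ± 1.35 CPM in CD libraries (a log2 fold change of 0.85 with an SE of 0.0836; edgeR quasi-likelihood test, adjusted p = 1.07e-05), higher in 4 of 4 HSD libraries. If btsz reads were spread evenly over its 17.3 kb of exons, the shared stretch would hold 0.385 CPM on HSD and 0.213 CPM on CD, beside CG14857 means of 2.60 CPM on HSD and 0.339 CPM on CD. The stretch is the last part of btsz as it is read, and neither an even spread nor the counting of reads shared by both genes was checked. The part of btsz reads in the CG14857 counts was not tested. CG14855 and CG14856 share no exonic base with another gene.

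Among the 6 genes, Orct and Orct2 carried nearly all of the reads on both diets. Orct encodes an organic cation transporter, and Orct2, also called calderón, is known as a transporter needed for tissue growth and linked to insulin signalling. Of all counts of the 6 genes, Orct held 66.2% on HSD (exact 95% interval 65.3 to 67.2%) and 67.7% on CD (66.8 to 68.6%), and Orct2 27.9% on HSD and 30.0% on CD. The 3 adjacent genes together held 4.19% on HSD (3.82 to 4.60%) and 0.985% on CD (0.801 to 1.20%). As for the run, these intervals leave out variation between libraries and may be too narrow.

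Orct stood at 80.4, 78.1, 79.8 and 83.4 CPM in HSD replicates 1 to 4, and at 75.0, 66.9, 71.4 and 73.0 CPM in CD replicates 1, 3, 4 and 5. The groups were close together and did not overlap, with 1.12 times the level on HSD (log2 fold change 0.17, standard error 0.0506). When libraries were scaled by their totals alone, which moved the median of all genes by −0.16 on the log2 scale, the Orct value was 0.0053.

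Orct2 stood at 34.5, 36.0, 31.5 and 33.3 CPM in HSD replicates 1 to 4, and at 30.4, 32.0, 32.8 and 31.0 CPM in CD replicates 1, 3, 4 and 5. Of the HSD libraries, 3 were above the highest CD library and HSD replicate 3 lay inside the CD range. The log2 difference was 0.10 with a standard error of 0.0579, and −0.07 when scaled by library totals alone.

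CarT encodes a transporter of carcinine, the β-alanyl conjugate of histamine, known from the recycling of histamine in photoreceptors. Here it had 34, 50, 38 and 54 counts in HSD replicates 1 to 4, and 18, 33, 42 and 36 counts in CD replicates 1, 3, 4 and 5. The diets overlapped, with 2 HSD libraries above the CD maximum. Mean abundance was 2.08 ± 0.530 CPM on HSD and 1.36 ± 0.419 CPM on CD (log2 fold change 0.60, standard error 0.270). Without HSD replicate 4 and CD replicate 1, the highest HSD and the lowest CD library, the log2 fold change was 0.31.

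Of the 6 genes, 4 (the adjacent 3 and Orct) had every HSD library above every CD library, where 15.1% of all genes fitted did. Because the genes were put forward with this comparison known, nothing is read from this count.

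Per kilobase of exon the order was steep. On HSD, Orct was at 31.8 ± 0.881 CPM per kb, Orct2 at 12.5 ± 0.697, CG14857 at 1.26 ± 0.207, CG14855 at 0.842 ± 0.259, CarT at 0.824 ± 0.210 and CG14856 at 0.404 ± 0.0755 CPM per kb. On CD, Orct was at 28.3 ± 1.35 CPM per kb, Orct2 at 11.7 ± 0.391, CarT at 0.539 ± 0.166, CG14855 at 0.230 ± 0.0515, CG14857 at 0.164 ± 0.0525 and CG14856 at 0.120 ± 0.0433 CPM per kb. On HSD the neighbours CG14857 and CG14855, and CG14855 and CarT, overlapped over the 4 libraries. On CD the 3 adjacent genes overlapped with their neighbours in the order, and all lay below CarT.

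**Figure D3:**
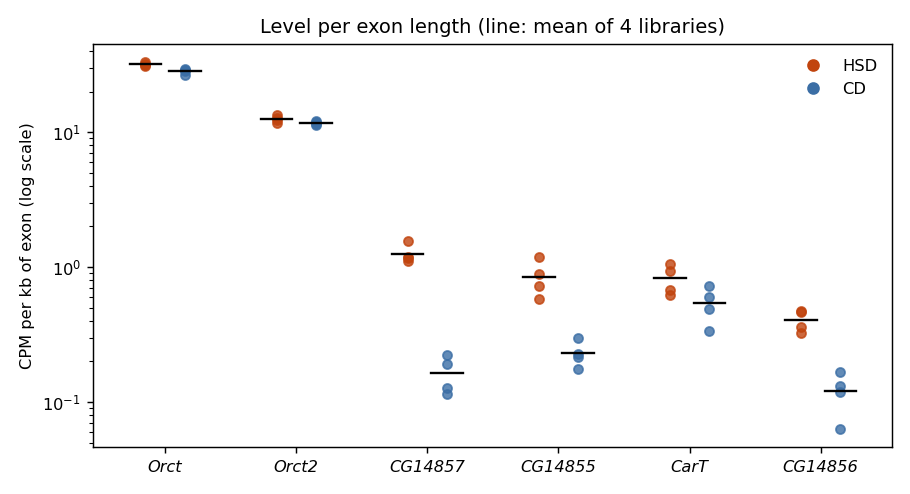
Level of each gene in CPM per kilobase of exon on a log axis, one point per library, HSD left of CD for each gene, with lines at the means of 4 libraries. Orct and Orct2 are at 31.8 and 12.5 CPM per kb on HSD and the other 4 genes at 1.26 CPM per kb or less; CG14857 stands above CarT on HSD and below it on CD.

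Neighbouring genes were not chosen for their values and could be tested. Around CG14855 to CG14857, 5 annotated genes were taken on each side, and 6 of these 10 were fitted. Of the 6, 2 rose, none fell and 4 did not pass, where 26.0% of all genes fitted were called in either direction. Those that rose were btsz, which overlaps CG14857, and CG7530, at 63.7 ± 2.33 CPM in HSD libraries and 53.1 ± 3.46 CPM in CD libraries (log2 fold change 0.26, edgeR adjusted p = 0.00487), a call lost when scaled by library totals alone (edgeR adjusted p = 0.134). The gene jvl, which ends 437 bases before CG14855, stood at 34.3 ± 3.60 CPM on HSD and 40.3 ± 4.53 CPM on CD, with a log2 difference of −0.23 (edgeR adjusted p = 0.0901). CG7362 and smp-30, which lie within the span of jvl, were too scarce to be fitted.

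Beside the Orct pair, 4 neighbours were fitted and CG6356 alone passed, where 26.0% of all genes fitted were called in either direction. CG6356 is itself an SLC22-like gene, 5163 bases beyond Orct. It fell to 9.61, 12.7, 10.7 and 9.91 CPM in HSD replicates 1 to 4, against 26.5, 20.2, 19.4 and 18.3 CPM in CD replicates 1, 3, 4 and 5. No libraries of the diets overlapped (log2 fold change −0.97 with a standard error of 0.126, edgeR adjusted p = 0.000118). Within this stretch of 3R the tandem pair thus had log2 differences of 0.10 and 0.17, and the nearby relative had −0.97. Beside CarT, 4 neighbours were fitted and TM9SF2 alone passed, again beside 26.0% called of all genes. TM9SF2, a gene for a multi-spanning membrane protein 134 bases away, rose 1.42-fold, to 313 ± 20.4 CPM in HSD libraries against 221 ± 11.8 CPM in CD libraries (edgeR adjusted p = 4.44e-05).

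**Figure D4:**
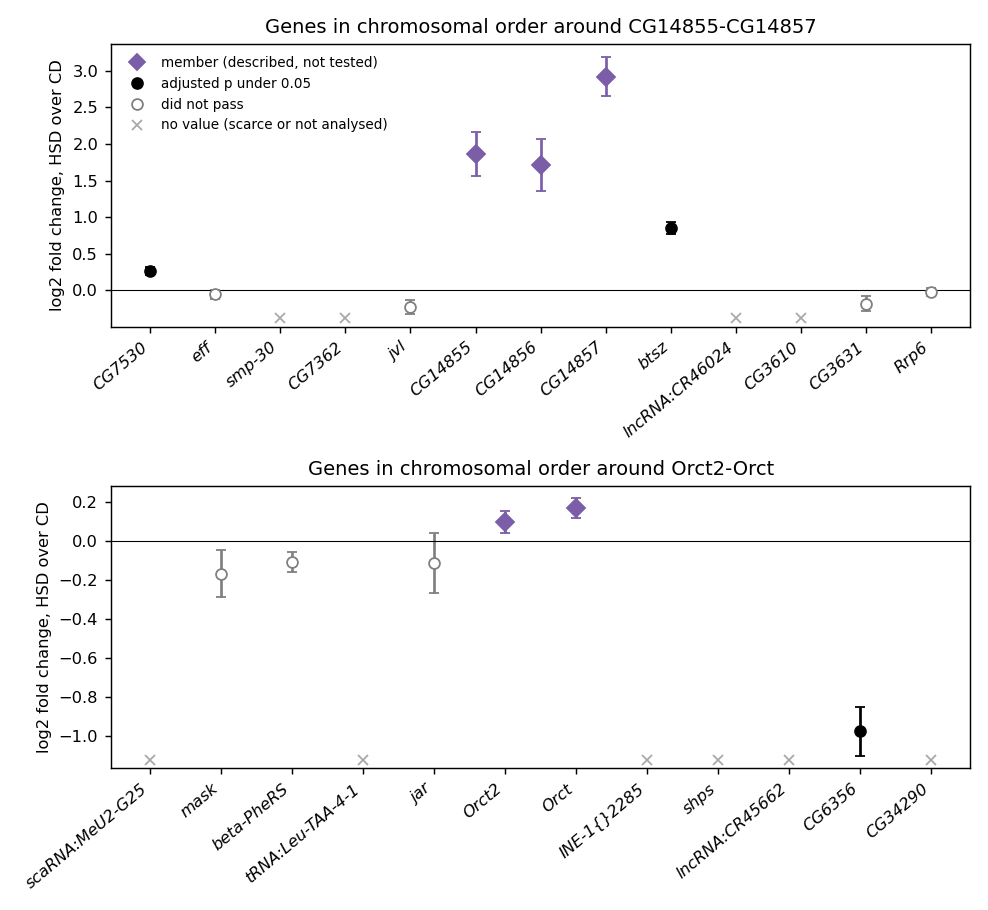
Log2 fold change of HSD over CD with standard errors for genes in chromosomal order, spaced evenly, around the adjacent run (top) and the Orct pair (bottom); crosses at the lower edge mark genes without a fitted value. The 3 adjacent genes stand at 1.71 to 2.92 with btsz at 0.85 beside them, and CG6356 stands at −0.97 near the Orct pair.

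Other SLC22-like genes differed in both directions. Of 19 relatives listed from background knowledge, 16 were in the table and 7 had enough counts to be fitted. Of those 7, 3 rose, 3 fell and 1 did not pass, where 14.4% of all genes fitted rose and 11.6% fell. Their median log2 fold change was −0.10, beside −0.01 over all genes fitted. The 9 scarce relatives held 2 to 31 counts each over all 8 libraries.

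CG6126 was the most abundant relative, at 81.4 ± 3.39 CPM in HSD libraries and 100.1 ± 2.68 CPM in CD libraries. It fell by 0.30 on the log2 scale (edgeR adjusted p = 0.000578), lower in 4 of 4 HSD libraries. Per kilobase it exceeded Orct on both diets, at 38.3 ± 1.60 CPM per kb on HSD and 47.1 ± 1.26 CPM per kb on CD. CG4630 fell to 3.27 ± 0.328 CPM on HSD against 5.77 ± 0.439 CPM on CD (log2 fold change −0.82, edgeR adjusted p = 0.000409). CG6231 rose 1.50-fold, with 38.3, 29.2, 30.6 and 40.3 CPM in HSD replicates 1 to 4 and 20.2, 22.8, 23.9 and 25.0 CPM in CD replicates 1, 3, 4 and 5 (edgeR adjusted p = 0.00171).

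The other relatives that rose, CG7458 and CG3168, are named here with their values already seen. CG7458 stood at 39.2 ± 0.993 CPM on HSD and 33.2 ± 1.65 CPM on CD (log2 fold change 0.24, edgeR adjusted p = 0.00689), a call lost when scaled by library totals alone (edgeR adjusted p = 0.365). CG3168 stood at 6.80 ± 0.852 CPM on HSD and 4.67 ± 1.16 CPM on CD (log2 fold change 0.53, edgeR adjusted p = 0.0389). The CG3168 call was lost when CD replicate 3 or 5, or HSD replicate 1, 2 or 4, was left out (edgeR adjusted p between 0.0581 and 0.117) and when scaled by library totals alone (edgeR adjusted p = 0.119), and its adjusted p over the full set of alternatives lay between 0.0191 and 0.204. SLC22A, named for the family as a whole, did not pass, at 0.594 ± 0.140 CPM on HSD and 0.632 ± 0.306 CPM on CD.

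**Figure D5:**
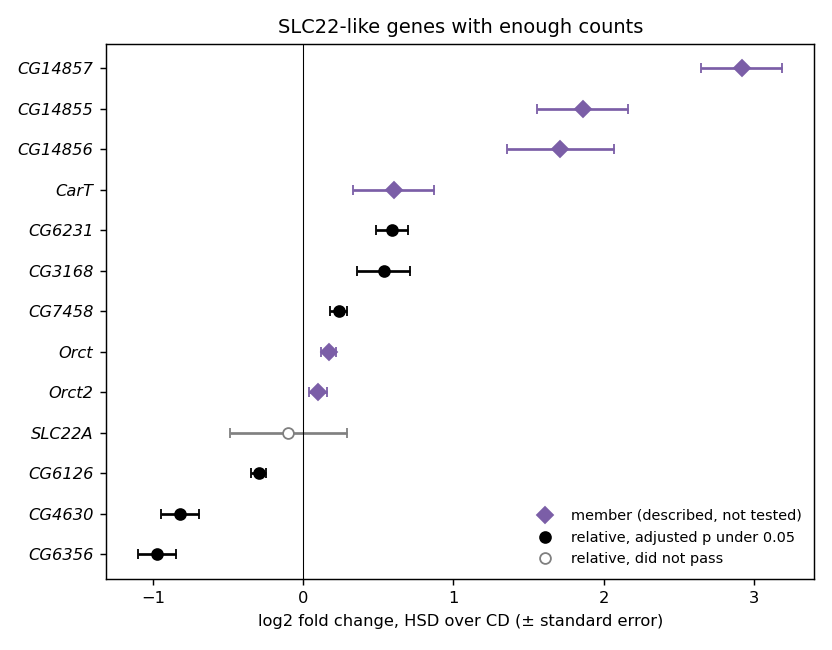
Log2 fold change of HSD over CD with standard errors for the 6 genes (diamonds, described without a test) and the 7 fitted relatives (circles, filled where the edgeR adjusted p is under 0.05). CG14857, CG14855 and CG14856 stand at 1.71 to 2.92, the remaining genes between −0.97 and 0.60.

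Genes of carcinine, amine and carnitine handling were taken from lists. Carcinine is the known substrate of CarT; amines and carnitine are carried by SLC22 proteins more widely, and are not named substrates of the other genes here. In the list of carcinine, histamine and monoamine genes, 2 of 10 were fitted, 1 rose and none fell, where 14.4% of all genes fitted rose and 11.6% fell, and 2 genes are too few to describe the list. The one that rose was t (tan), whose enzyme splits carcinine into histamine and β-alanine. It stood at 9.10, 10.2, 10.5 and 9.22 CPM in HSD replicates 1 to 4, and at 1.52, 2.09, 1.62 and 2.12 CPM in CD replicates 1, 3, 4 and 5. The groups were far apart, with a 5.28-fold rise (log2 fold change 2.40 with a standard error of 0.134, edgeR adjusted p = 1.44e-07). The gene e (ebony), whose enzyme makes carcinine, held 34 counts over the HSD libraries, 22 of them in HSD replicate 4, and 30 over the CD libraries. Hdc, which makes histamine, held 42 over the HSD libraries, 34 of them in HSD replicate 3 alone, and 10 over the CD libraries. Both genes had too few counts to be fitted. The β-alanine transporter gene Balat was not analysed here.

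In the list for carnitine synthesis and the carnitine shuttle, 5 of 7 genes were fitted, 2 rose and none fell, where 26.0% of all genes fitted were called in either direction. Nothing is read from 2 calls among 5 genes. The carnitine palmitoyltransferase gene whd stood at 72.4 ± 4.12 CPM on HSD and 43.6 ± 3.38 CPM on CD (log2 fold change 0.73, edgeR adjusted p = 4.81e-06). CG5321, a predicted γ-butyrobetaine dioxygenase for the last step of carnitine synthesis, stood at 1.60 ± 0.322 CPM on HSD and 0.607 ± 0.305 CPM on CD (log2 fold change 1.41 with a standard error of 0.339, edgeR adjusted p = 0.0085). The shuttle genes CPT2, colt and CRAT did not pass, with log2 differences of 0.02, 0.04 and −0.02. Among organic anion and multidrug transporters, 4 of 12 were fitted, again beside 26.0% called of all genes: Oatp30B rose 2.04-fold (edgeR adjusted p = 5.95e-06), Oatp74D, known as an importer of the steroid hormone ecdysone, fell by 0.38 on the log2 scale (edgeR adjusted p = 0.00131), and 2 did not pass.

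Across the 8 libraries, the genes whose log2 CPM followed CG14857 most closely were Ppn, a matrix proteoglycan-like gene (Pearson r = 0.998), Kank (0.994) and Sema1b (0.994). CG14855 was followed most closely by CG12065 (0.993), Glt (0.986) and BORCS5 (0.985), and CG14856 by CG31832 (0.986), laza (0.985) and Rab27 (0.983). For Orct they were CG34200, CG5359 and scramb1 (0.977, 0.976 and 0.971), for Orct2 CG11436, Galphaq and CtBP (0.987, 0.979 and 0.966), and for CarT Ugt37C2, asRNA:CR42254 and Ero1L (0.936, 0.917 and 0.914). These values describe 8 libraries in 2 diets, so a diet difference in the same direction raises r by itself. Of the 6846 genes compared, 537 reached 0.9 with CG14857, 331 with CG14855 and 316 with CG14856, against 225, 29 and 5 with Orct, Orct2 and CarT.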

How the data were processed

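The deposited values are raw read counts per gene in whole numbers. The submitters' processing notes name Trim Galore 0.6.7 for trimming, STAR 2.7.10a for alignment, dm6 as the build and featureCounts for counting. How strand and multiply mapped reads were handled is not given in the sources used here, so counts of similar copies such as Orct and Orct2 could have been split. Gene positions and exon lengths were read from Ensembl's annotation of that build; 11698 identifiers had a symbol.

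Counts were fitted with edgeR 4.0.16 in R 4.3.3: filterByExpr with a minimum count of 10 (99.957% of counts kept), TMM scaling, robust quasi-likelihood with diet as the only term, Benjamini-Hochberg adjustment over all genes fitted and a threshold of 0.05. The script was tested on simulated data. CPM uses TMM-scaled library sizes. The labels give 1 batch. The members and lists were chosen with earlier results of these data known. Named genes were the 6 members, up to 4 called genes of each list by smallest p, whd and Balat, and the 3 genes most like each member by Pearson r over genes averaging 2 CPM or more. Relatives were to be found by protein sequence; no protein table was used here, so the recalled list took its place, and promoter motifs were not examined. Alternatives were RLE and library-size scaling, no filter, at least 5 CPM in 4 libraries, DESeq2 1.42.0, a replicate block and leaving out each library.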

Additional observations from a re-analysis of the deposited data

Results flagged for a closer look

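In 40 checks of 4 libraries each, 2 had a library far from the others, where chance flags about 1 in 20. For btsz, which overlaps CG14857, HSD replicate 4 stood at 23.1 CPM against 27.3 to 27.9 CPM in the other HSD libraries. For whd, CD replicate 5 stood at 48.6 CPM against 41.4 to 42.5 CPM in the other CD libraries.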

How the results depend on the processing

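The log2 fold changes of CG14855, CG14856, CG14857 and CarT kept their direction and moved by less than the spread between replicates under every alternative that could fit them. They ran from 1.65 to 2.06, 1.41 to 1.93, 2.75 to 3.12 and 0.31 to 0.78; at least 5 CPM in 4 libraries removes these 4 genes. With library size as the only scaling, Orct moved to 0.0053 and Orct2 turned to −0.0664, the genes called became 690 higher and 3161 lower in place of 1128 and 912, 1 relative was higher, 7 neighbouring genes were lower, and 1 gene of the amine and carnitine lists was lower. Higher genes were then 17.9% of all calls, and 55.3% with TMM scaling. With 10 neighbours on each side in place of 5, 7 rose and 4 fell, since more genes were counted. Leaving out single libraries gave 1 to 2 lower neighbours; there were 2 without CD replicate 1, and also 2 without CD replicate 1 and HSD replicate 4 together, an alternative chosen after seeing the data. The causes of the remaining moves were not tested. Same-numbered libraries did not deviate together (correlations from −0.176 to −0.0738 over 3 pairs, none best with its own number), so numbers are not taken as pairs; with a replicate block 589 genes were higher and 253 lower, and 1 relative was higher; CG6126, CG7458, CG3168 and CG7530 lost their calls. In the block fit HSD replicate 2 and CD replicate 5 had no partner. The diet difference there rested on the 3 same-numbered pairs, with less power to call genes. The 2 sequence-based alternatives for choosing relatives were not run. Depth limits the CD levels of the adjacent genes, which rest on 23 to 43 counts each.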

Other observations

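CG34290, the fifth neighbour beyond Orct and too scarce to be fitted, had 12 counts over the HSD libraries and 0 over the CD libraries, which allows up to 3, and was singled out after its values were seen. Among multidrug transporter genes below the limit for the fit, Mdr50 had 9 counts over the HSD libraries and 1 over the CD libraries, likewise singled out afterwards.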
